A study of Mus musculus with 3 samples.

Results

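Enteroendocrine cells of the mouse intestinal crypt epithelium were defined here by their transcripts in 3 single-cell RNA-seq libraries. Cells were retained with 1000 or more detected genes and no more than 15% mitochondrial transcripts, counted as unique molecular identifiers (UMIs, 1 per captured transcript molecule). A retained (kept) cell was called enteroendocrine when *Chga*, *Chgb*, *Cck*, *Gip*, *Sct*, *Ghrl*, *Tph1* and *Cpe* together made up at least 0.3% of its UMIs. This gave 191 enteroendocrine cells of 5594 kept cells (3.41%). Both genotypes carried VillinCreERT2, a tamoxifen-inducible Cre recombinase driven by the epithelial Villin promoter. The Arid3a cKO animals (VillinCreERT2, Arid3a fl/fl) gave 2 libraries, and the VillinCreERT2 control animals, labelled WT, gave 1 library. All animals, WT included, received tamoxifen from an age of 8 to 10 weeks, and tissue was taken 1 month after the first dose. Live Epcam+ CD45- CD31- cells were sorted from dissociated crypts and captured with 10x 3′ chemistry. The design text gives more than 1 WT replicate; a further WT library was not analysed here, and how many animals went into each library is not given in the sources used here.

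Enteroendocrine cells are scattered secretory cells of the gut lining that sense nutrients, microbial products and mechanical signals and release peptide hormones or serotonin. They arise from crypt progenitors under the proneural factor Neurog3 and are then held in their endocrine state by factors such as Neurod1, Insm1, Pax6 and Nkx2-2. Their classical types are named after their main product: serotonin (enterochromaffin cells), GIP (K cells), CCK (I cells), ghrelin (X cells), GLP-1 and PYY (L cells), neurotensin (N cells) and somatostatin (D cells). ARID3A is a DNA-binding protein with an AT-rich interaction domain.

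The enteroendocrine cells of the 3 libraries held 1062829 UMIs (Arid3a cKO 1, 50 cells), 877051 UMIs (Arid3a cKO 2, 44 cells) and 2168830 UMIs (WT, 97 cells). Series of 3 values below follow this order. Their median depth was 17679, 15993.5 and 16199 UMIs per cell, compared with 31558, 36112.5 and 30224 UMIs in the other kept cells. No barcode was shared between libraries among the enteroendocrine cells. The 8 genes took a median of 8.25%, 9.29% and 8.94% of a cell's UMIs, and up to 51.7%, 39.1% and 64.1%. The member nearest to the limit stood at 0.305% and the nearest cell outside it at 0.286%. A further 352 barcodes met the hormone rule but not the limits on genes or mitochondrial UMIs (66, 38 and 248), with median depths of 657.5, 740.5 and 618.5 UMIs.

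*Arid3a* (chr10:79927043-79955018, plus strand, GRCm38) was low in these cells. Its UMIs numbered 4, 6 and 35. As counts per 1000000 UMIs (CPM) this was 3.76 (95% exact Poisson interval 1.03 to 9.64), 6.84 (2.51 to 14.9) and 16.1 (11.2 to 22.4). Both Arid3a cKO libraries were below WT, with the second of them overlapping WT within counting error. The log2 fold change was -1.70 ± 0.69 (SE) and did not pass the test across all genes (edgeR quasi-likelihood test, adjusted p = 0.999). The other kept cells held 0.544, 0.803 and 2.08 CPM, and the genotype difference of *Arid3a* did not pass the test for a difference between the 2 compartments (edgeR interaction log2 -0.12 ± 0.82, adjusted p = 1). Counts per gene do not show whether the 3′ reads covered the floxed part of the gene, so these values check the labels only in part. All intervals cover counting error only.

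Genes that the rule did not use gave the same identity. All 12 of the fixed endocrine markers outside the rule were detected, among them *Neurod1*, *Insm1*, *Pax6*, *Isl1*, *Rfx6*, *Nkx2-2* and *Fev* (transcription factors), *Scg2*, *Scg3* and *Scg5* (granins) and *Pcsk1* (prohormone convertase). Their summed level was 4132, 4142 and 4102 CPM in the enteroendocrine cells of the 3 libraries and 7.92, 10.4 and 7.29 CPM in the other cells. *Neurod1* reached at least 3 UMIs in 39 of 50, 34 of 44 and 77 of 97 enteroendocrine cells. *Neurog3*, which marks early endocrine progenitors, had only 57, 16 and 40 UMIs in them and 116, 115 and 130 UMIs in the cells outside, so that the larger part of its UMIs lay outside the rule.

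Cells that also carried other lineages' transcripts were present among them. Fixed marker lists of enterocytes, goblet, Paneth or tuft cells reached at least 1% of UMIs in 7, 13 and 27 enteroendocrine cells. Goblet markers did so in 6, 6 and 19 cells and enterocyte markers in 1, 6 and 9 cells. In WT, 1 cell had 48.5% of its UMIs from goblet markers. The summed goblet list stood at 6712, 4394 and 19906 CPM, with all 7 of its genes lower in both Arid3a cKO libraries than in WT, as were 23.2% of all genes tested. Enterocyte markers summed to 3860, 13956 and 8056 CPM and Paneth markers to 530, 2311 and 822 CPM, both with WT between the Arid3a cKO libraries. Tuft markers summed to 4.70, 6.84 and 92.2 CPM, and 1 WT cell had more than 1% of its UMIs from them. The leukocyte list was at most at 1.14 CPM. In the endothelial and stromal list *Kdr*, *Col1a1*, *Col3a1* and *Dcn* were at 0, and *Vim* accounted for 242, 237 and 273 CPM. A doublet caller marked 30 of 2134, 34 of 1550 and 46 of 1910 kept cells. Among these were 0 of 50, 1 of 44 and 5 of 97 enteroendocrine cells. For the genes they touch, values without the cells that reached 1% are given below.

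Enteroendocrine cells made up a smaller share of kept cells in both Arid3a cKO libraries. The share was 2.34% (95% Clopper-Pearson interval 1.74 to 3.08) in Arid3a cKO 1, 2.84% (2.07 to 3.79) in Arid3a cKO 2 and 5.08% (4.14 to 6.16) in WT. Neither Arid3a cKO interval overlapped that of WT. With 2 libraries against 1, no permutation test over libraries can reach 0.05, and shares of sorted cells depend on every other cell type in the library. Without the cells carrying at least 1% of another lineage's markers the shares were 2.02%, 2.02% and 3.72%, and the upper bounds of 2.71% and 2.85% came close to the WT lower bound of 2.91%.

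**Figure D1:**
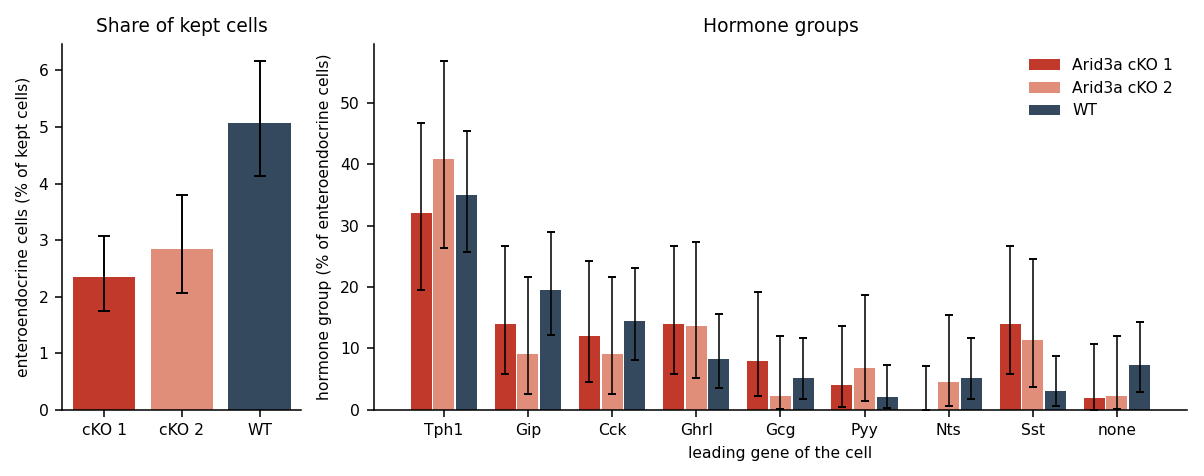
Left, enteroendocrine cells as a percentage of kept cells in each library. Right, the percentage of enteroendocrine cells led by each hormone gene, in Arid3a cKO 1, Arid3a cKO 2 and WT; bars are single libraries and error bars are 95% Clopper-Pearson intervals. The Arid3a cKO shares of 2.34% and 2.84% lie below the WT share of 5.08%, and the *Sst* bars of 14.0% and 11.4% lie above the WT bar of 3.09%.

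To describe the types present, each cell was assigned to the hormone gene that stood highest relative to its mean over enteroendocrine cells, among *Tph1*, *Gip*, *Cck*, *Ghrl*, *Gcg*, *Pyy*, *Nts* and *Sst*. Of 191 cells 182 could be assigned. Cells led by *Tph1*, the rate-limiting enzyme of serotonin synthesis in these cells, were the most numerous, with 68 cells (35.6%). They were followed by 30 cells led by *Gip*, 24 by *Cck*, 21 by *Ghrl*, 15 by *Sst*, 10 by *Gcg*, 7 by *Pyy* and 7 by *Nts*. *Tph1*-led cells numbered 16, 18 and 34 and *Gip*-led cells 7, 4 and 19. As a share of all kept cells, *Tph1*-led cells stood at 0.750%, 1.16% and 1.78%, *Gip*-led cells at 0.328%, 0.258% and 0.995% and *Cck*-led cells at 0.281%, 0.258% and 0.733%, below WT in both Arid3a cKO libraries; among these 6 values only that of *Tph1* in Arid3a cKO 1 (interval 0.429 to 1.21%) lay clear of the WT interval (1.24 to 2.48%). *Ghrl*-led cells, at 0.328%, 0.387% and 0.419%, were within each other's counting error. *Sst*-led cells went the other way, at 0.328%, 0.323% and 0.157%, with overlapping intervals.

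Most cells carried more than 1 hormone transcript. With a minimum of 10 UMIs for each of 10 hormone genes, 154 of 191 cells (80.6%) held 2 or more hormones, 85 held 3 or more and the most was 6. Proglucagon (*Gcg*), the precursor of GLP-1, was never seen alone: all 21 cells with *Gcg* also had *Cck* and *Sct* (secretin), and 18 of them had *Ghrl*. All 9 cells with *Nts* (neurotensin) and all 17 with *Pyy* also had *Sct*. Among all 191 enteroendocrine cells, however, 143 had *Sct*, 73 *Tph1*, 61 *Cck* and 54 *Ghrl* at the same minimum. Much overlap with *Sct* is therefore found for any hormone. *Tac1*, the precursor of substance P, shared its cell with *Tph1* in 24 of 31 cases. *Gip* and *Cck* met in 20 of 36 *Gip* cells. *Sst* was combined with *Ghrl* in 11 of 15 cells and with *Cck* in 0 of 15. Of these genes *Cck*, *Gip*, *Sct*, *Ghrl* and *Tph1* are in the rule, and *Gcg*, *Nts*, *Pyy*, *Sst* and *Tac1* are not. Cells with the latter were included only if they held enough UMIs of rule genes, so their pairing with rule genes follows in part from the selection.

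**Figure D2:**
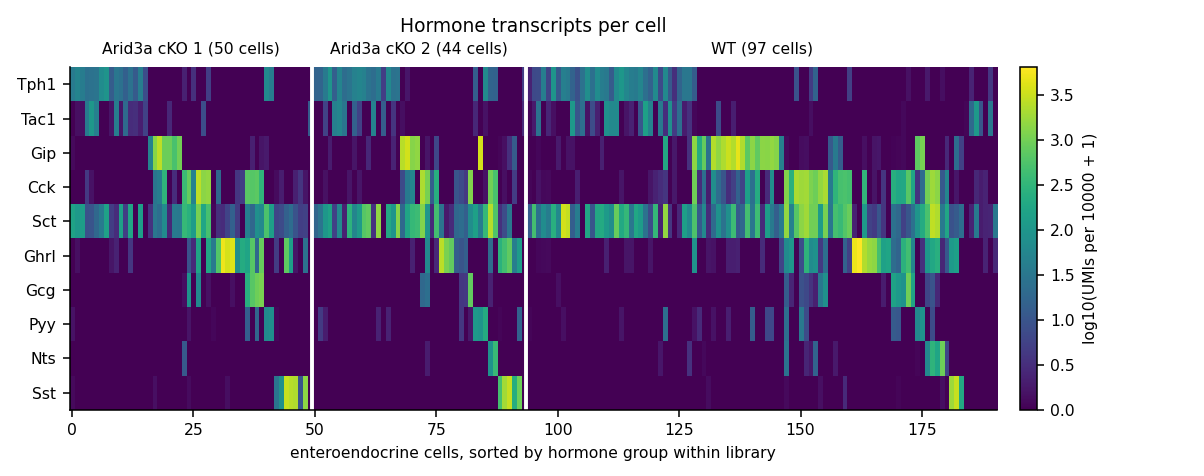
Hormone transcripts in each of the 191 enteroendocrine cells (columns, sorted by library and leading hormone); colour is each gene's share of the cell's UMIs on a log10 scale. Blocks of *Tph1* with *Tac1* and of *Cck* with *Sct* and *Gcg* recur in all 3 libraries, and *Sst* cells form a block of 7, 5 and 3 cells.

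The leading hormone went with other genes that took no part in the assignment; these are pooled values, as a description. *Tph1*-led cells carried *Lmx1a*, a factor of the serotonin lineage, at 231 CPM (66 of 68 cells with a UMI) and 9.75 CPM in all other enteroendocrine cells. They also held the lectin *Reg4* at 24428 and 685 CPM, the irritant receptor *Trpa1* at 561 and 28.5 CPM and the vesicular monoamine transporter *Slc18a1* at 475 and 59.6 CPM. *Gip*-led cells stood out by the cannabinoid receptor *Cnr1* (357 and 8.80 CPM, in 29 of 30 cells) and by *Rfx6* (280 and 53.3 CPM) and *Pax6* (399 and 105 CPM). *Cck*-led cells carried *Scg2* at 3707 and 631 CPM and the fatty acid receptor *Ffar1* at 355 and 77.0 CPM. In *Ghrl*-led cells *Mboat4*, the ghrelin acyltransferase, stood at 262 and 11.1 CPM. *Gcg*-led cells had the lipid receptor *Gpr119* at 66.7 and 7.70 CPM and *Etv1* at 525 and 110 CPM.

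Cells led by *Sst* shared a set of genes. *Hhex*, a homeobox factor known to act in pancreatic somatostatin cells, was found at 562 CPM in 14 of these 15 cells and at 0 CPM in the other enteroendocrine cells. *Iapp* (amylin) was at 3829 CPM in 13 of 15 cells and at 0.80 CPM elsewhere. The subunits of the ATP-sensitive potassium channel followed, with *Abcc8* at 246 and 74.6 CPM and *Kcnj11* at 81.0 and 15.5 CPM. *Lmx1a*, *Ffar1* and *Trpa1*, found in other hormone groups, had 0 UMIs in them.

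The 8 genes of the rule were compared between genotypes as a description only, because they chose the cells. *Chga* and *Chgb*, which package hormones into granules, stood at 4474, 6318 and 3499 CPM and at 21087, 20798 and 15779 CPM. Summed *Sct* was lower in both Arid3a cKO libraries, at 11084 and 21790 CPM against 36009 CPM. The median cell had 32, 119.5 and 92 *Sct* UMIs, with WT between the Arid3a cKO libraries. The top 5 cells held 67.6%, 67.7% and 48.1% of the *Sct* UMIs. *Cck* stood at 23376, 19487 and 30711 CPM, and *Ghrl* at 40436, 39089 and 25455 CPM. *Gip* (11372, 23982 and 20345 CPM) and *Tph1* (1017, 1388 and 1066 CPM) had WT between the Arid3a cKO libraries, while *Cpe*, the carboxypeptidase of prohormone processing, was at 1025, 959 and 1178 CPM. Few cells set these sums: the top cell held 66.8% of all *Ghrl* UMIs in Arid3a cKO 2.

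**Figure D3:**
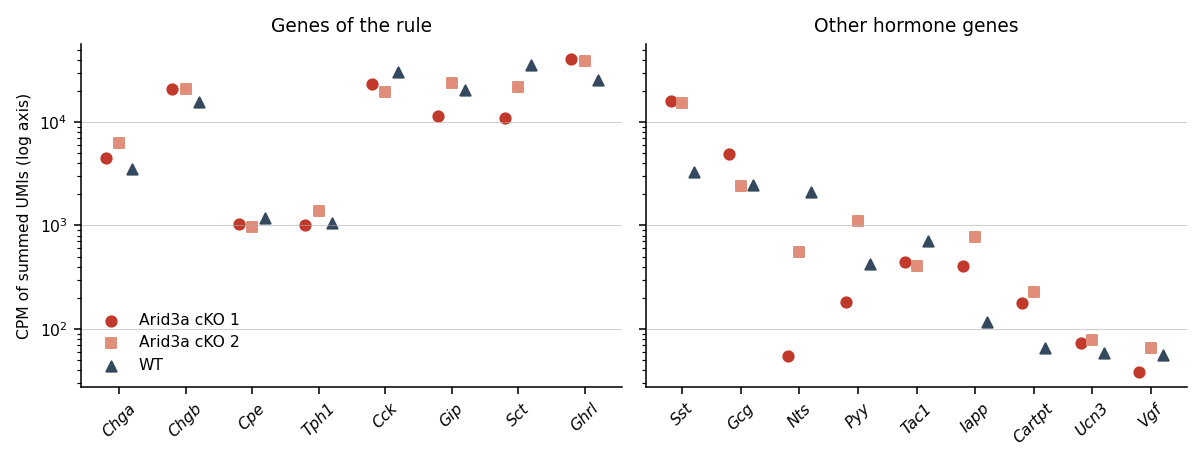
Level of the 8 rule genes (left) and of 9 other hormone genes (right) in the summed enteroendocrine cells of each library, in CPM on a log axis; each point is 1 library. *Sst*, *Iapp* and *Cartpt* lie above WT in both Arid3a cKO libraries, *Nts* and *Tac1* below it.

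The genotypes were then compared over all genes on the summed UMIs of each library. Of 9995 genes tested, 27 passed (0.27%; edgeR quasi-likelihood test, adjusted p at or below 0.05), of which 9 were higher in Arid3a cKO (0.09%) and 18 lower (0.18%). At an unadjusted p under 0.05 there were 354, and DESeq2 called 8. The test assumed that the single WT library varied like the Arid3a cKO libraries. The higher genes included the hormones *Sst*, *Iapp* and *Cartpt*, the factor *Hhex* and the stem cell gene *Olfm4*. The lower genes included goblet products (*Spink4*, *Zg16*), MHC class II genes (*Cd74*, *H2-Ab1*) and the chaperone *Hsph1*.

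*Sst* (chr16:23889573-23890958, minus strand), the somatostatin gene, had 17104, 13344 and 7221 UMIs, or 16093, 15215 and 3329 CPM. Both Arid3a cKO libraries were far above WT, with a log2 fold change of 2.16 ± 0.33 (edgeR adjusted p = 0.00411). *Iapp* (chr6:142298423-142303961, plus strand) was at 407, 782 and 117 CPM (log2 fold change 2.28 ± 0.38, edgeR adjusted p = 0.00781). *Hhex* (chr19:37434810-37440731, plus strand) was at 116, 47.9 and 16.6 CPM (log2 fold change 2.22 ± 0.43, edgeR adjusted p = 0.0267). *Cartpt* (chr13:99898489-99901091, minus strand), which encodes the CART peptide, was at 176, 229 and 65.9 CPM (log2 fold change 1.55 ± 0.30, edgeR adjusted p = 0.0274).

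The 3 genes *Sst*, *Iapp* and *Hhex* were expressed by the same few cells, so they are not separate findings. The *Sst*-led cells held 99.8% of *Iapp* UMIs and 100% of *Hhex* UMIs. They numbered 7, 5 and 3, which was 14.0% (5.82 to 26.7), 11.4% (3.79 to 24.6) and 3.09% (0.642 to 8.77) of enteroendocrine cells, with overlapping intervals. Without the 5% highest doublet scores 2, 5 and 3 cells were led by *Sst* (5.41%, 12.8% and 3.61%), so 5 of the 7 in Arid3a cKO 1 were among the highest scores. The same cut left 37 of 50, 39 of 44 and 83 of 97 enteroendocrine cells, so high scores were not limited to *Sst*-led cells. Within all *Sst*-led cells the levels were no higher in Arid3a cKO: *Sst* was at 84518, 112516 and 195523 CPM, *Iapp* at 2135, 5784 and 6829 CPM and *Hhex* at 608, 354 and 976 CPM. A single cell held 33.7%, 38.2% and 58.9% of the *Sst* UMIs. *Sst* is not in the rule, and 1, 2 and 3 kept cells with at least 0.3% of UMIs from *Sst* lay outside it. Counted over all kept cells, those with at least 0.3% of UMIs from *Sst* numbered 6, 7 and 6 (0.281%, 0.452% and 0.314%), with WT between the Arid3a cKO libraries. The calls depended on the setting: *Sst* was lost at a rule of 0.5%, at 10% mitochondrial UMIs and without the mixed-lineage cells (edgeR adjusted p = 0.0623, 0.158 and 0.139), *Iapp* under 3 of 11 alternatives and *Hhex* under 5, DESeq2 among them. The log2 fold changes stayed positive under all 11, between 1.10 and 2.30. With the cells outside added, *Sst* rose by 2.04 on the log2 scale (edgeR adjusted p = 0.0209), *Iapp* by 2.19 (adjusted p = 0.00628) and *Hhex* by 2.27 (adjusted p = 0.00565).

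A UMI of *Sst* alone did not mark a cell that made it. At least 1 UMI was present in 22.0%, 11.4% and 9.28% of enteroendocrine cells and also in 5.52%, 3.90% and 4.40% of cells with enterocyte markers, whose median depths were 32097, 35832.5 and 30821 UMIs. At 10 or more UMIs, 14.0%, 11.4% and 3.09% of enteroendocrine cells had *Sst*, and 0% of the cells with enterocyte markers.

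The promoters of *Sst* and *Cartpt* are shown because both genes were called higher in the summed enteroendocrine cells and both contain the octamer TGACGTCA. This is the cAMP response element, a palindrome and hence the same on both strands, given in capitals. Within *Sst*-led cells *Sst* was no higher in Arid3a cKO. It occurs in 1.79% of 32817 RefSeq promoters of the same length. The windows run from 250 bases before to 50 bases after the annotated start (RefSeq, GRCm38.p6), chr16:23890795-23891094 on the minus strand for *Sst* and chr13:99900634-99900933 on the minus strand for *Cartpt*. The windows of *Iapp* and *Hhex* held no such octamer. The match describes the sequence only, and a link to the genotype difference was not tested.
Sst: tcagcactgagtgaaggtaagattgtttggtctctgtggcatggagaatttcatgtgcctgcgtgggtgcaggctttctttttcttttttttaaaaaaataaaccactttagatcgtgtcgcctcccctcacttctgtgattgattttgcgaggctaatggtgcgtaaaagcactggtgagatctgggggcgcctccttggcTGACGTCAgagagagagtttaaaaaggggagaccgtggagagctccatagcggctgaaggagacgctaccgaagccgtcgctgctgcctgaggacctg
Cartpt: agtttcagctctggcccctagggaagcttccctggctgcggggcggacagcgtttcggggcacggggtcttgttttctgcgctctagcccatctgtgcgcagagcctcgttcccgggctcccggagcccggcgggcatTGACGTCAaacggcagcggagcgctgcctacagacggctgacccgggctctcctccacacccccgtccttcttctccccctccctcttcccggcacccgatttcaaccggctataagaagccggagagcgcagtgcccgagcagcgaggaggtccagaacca

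*Cartpt* UMIs lay in other cells than those of *Sst*: 66.7% were in *Tph1*-led and 33.3% in *Pyy*-led cells. A single cell held 53.5% and 47.8% of them in the Arid3a cKO libraries and 25.2% in WT. *Fxyd2*, a regulator of the sodium pump, was at 54.6, 33.1 and 11.1 CPM (log2 fold change 1.91 ± 0.39, edgeR adjusted p = 0.0405), and 89.2% of its UMIs lay in *Ghrl*-led cells. *Olfm4*, a crypt stem cell gene, was at 187, 200 and 62.7 CPM (log2 fold change 1.55 ± 0.28, edgeR adjusted p = 0.0184). It was seen in only 11, 5 and 15 cells. Without the cells carrying another lineage's markers, *Cartpt* (log2 1.01), *Fxyd2* (1.64) and *Olfm4* (1.02) kept their direction but were not called (edgeR adjusted p = 1, 1 and 0.698). Arid3a cKO 2 then had 0 UMIs of *Fxyd2*.

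**Figure D4:**
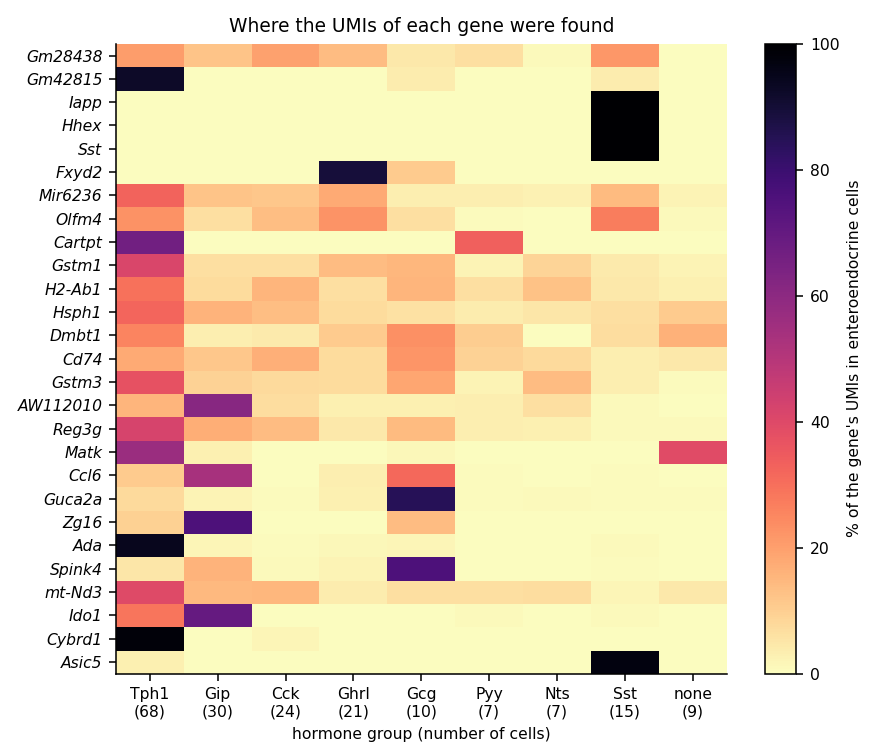
Share of each gene's enteroendocrine UMIs that lay in cells led by each hormone (columns, number of cells in brackets), for genes called between genotypes and for *Asic5*. *Iapp* (99.8%) and *Hhex* (100%) lie in the *Sst* column and *Fxyd2* (89.2%) in the *Ghrl* column.

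Many of the lower genes were goblet products or came from single WT cells. *Spink4* (chr4:40920052-40931395, plus strand), a goblet cell peptide, was at 99.7, 63.9 and 1385 CPM (log2 fold change -4.16 ± 0.29, edgeR adjusted p = 2e-07). *Zg16*, a mucus lectin, was at 1092, 103 and 8088 CPM (log2 fold change -3.87 ± 0.65, edgeR adjusted p = 0.0086). In WT, 98.1% of *Spink4* and 98.8% of *Zg16* UMIs came from the 27 cells with another lineage's markers, and 80.0% of *Zg16* came from 1 cell. Both genes are in the goblet list that helped to pick these cells. Their concentration in these cells, and the loss of their calls without them, were thus largely fixed in advance. The same cells held 99.5% of the WT UMIs of *Guca2a* (guanylin) and 90.1% of those of the antimicrobial lectin *Reg3g*. *Ada* (adenosine deaminase) had 97.4% of its WT UMIs in 1 cell. In all, 9 of the 18 lower genes had at least 50% of their WT UMIs in 1 cell. Without the cells carrying another lineage's markers, *Spink4* was at a log2 fold change of -0.08, *Zg16* at -0.84 and *Reg3g* at -0.71, and none of these 3 was called (edgeR adjusted p = 1 for each).

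*Hsph1*, *Cd74* and *H2-Ab1* had a smaller part of their WT UMIs in those cells (24.5%, 39.2% and 55.6%) than *Spink4*, *Zg16*, *Guca2a* and *Reg3g*. With those cells left out, the WT level in CPM was higher for *Hsph1*, almost unchanged for *Cd74* and lower for *H2-Ab1*. In WT, *H2-Ab1* was thus enriched in the cells with another lineage's markers, and *Cd74* was about as frequent there as in the remaining cells. *Hsph1*, an Hsp110 chaperone, was at 56.5, 35.3 and 128 CPM (log2 fold change -1.55 ± 0.30, edgeR adjusted p = 0.0267). It was detected in 77 of 97 WT cells, and fell by 1.58 on the log2 scale without the cells in question (edgeR adjusted p = 0.0254). Its log2 fold change stayed between -1.60 and -1.42 under all 11 alternatives, but it was called under only 7. The call was lost at 25% mitochondrial UMIs and 500 genes, at 10% mitochondrial UMIs, with DESeq2 size factors and by DESeq2. *Cd74*, the MHC class II invariant chain, was at 37.6, 27.4 and 109 CPM (log2 fold change -1.82 ± 0.30, edgeR adjusted p = 0.00695). *H2-Ab1*, a class II beta chain, was at 20.7, 23.9 and 61.3 CPM (log2 fold change -1.54 ± 0.31, edgeR adjusted p = 0.0405). Without those cells the log2 fold changes were -1.50 for *Cd74* and -1.34 for *H2-Ab1*, neither called (adjusted p = 0.0706 and 0.698). Without the 5% highest doublet scores *Cd74* changed direction (log2 0.0088, adjusted p = 1), and *H2-Ab1* was called under only 4 of 11 alternatives. The other kept cells of the same libraries moved alike, with *Cd74* at 55.6, 37.6 and 313 CPM and *Hsph1* at 27.3, 35.9 and 113 CPM, and the interaction test called neither.

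*mt-Nd3* and *Gm28438* were called in opposite directions and are uncertain. *mt-Nd3* was at 3.76, 9.12 and 163 CPM, and *Gm28438*, a nuclear pseudogene, had 107 UMIs in Arid3a cKO and 0 in WT, which was at least 39.9-fold higher against a floor of 3 counts over the group. Their sequences are identical over 344 of 345 bases, so reads could be assigned to either. The other kept cells had the same split, with *Gm28438* at 95.1, 73.4 and 0.066 CPM.

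**Figure D5:**
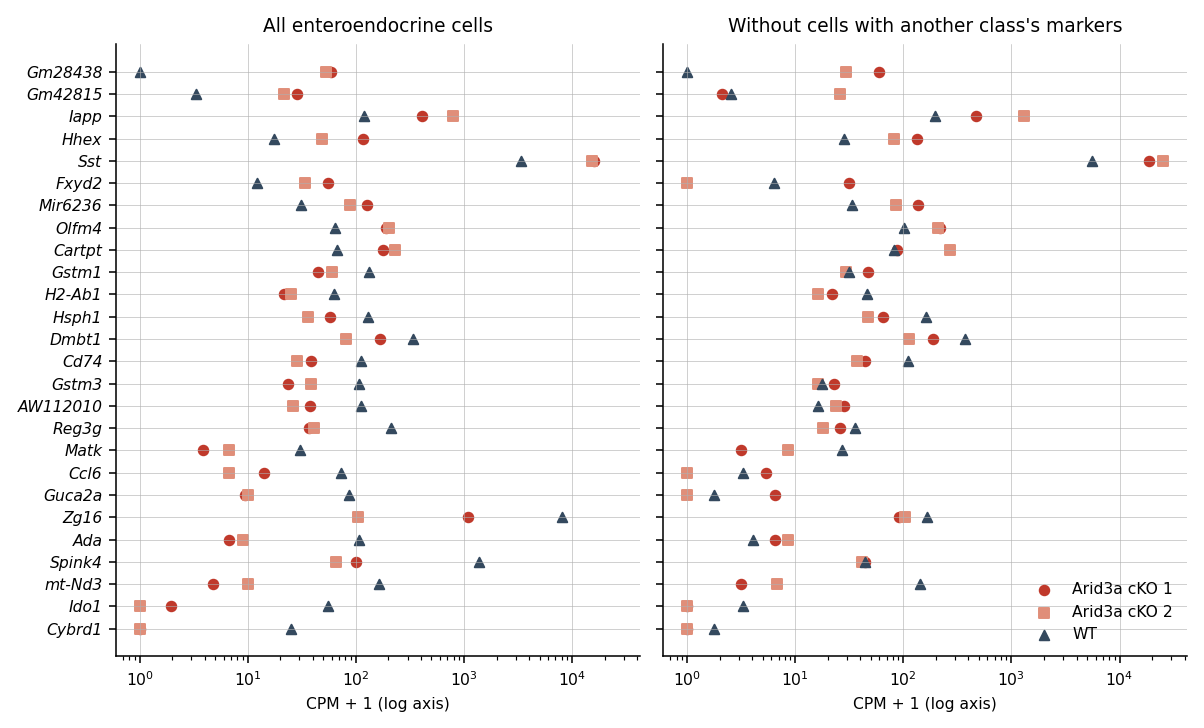
CPM plus 1 (log axis) of genes called between genotypes in each library, for all 191 enteroendocrine cells (left) and without the cells holding at least 1% of UMIs from another lineage's markers (right). *Spink4* in WT, at 1385 CPM on the left, joins the Arid3a cKO points on the right at 42.8 CPM. It is itself in the goblet list that helped to pick the removed cells. *Iapp* and *Hsph1* keep their order.

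Lists of endocrine, immune, stress and other programmes were then counted. Across these lists, 8 of 177 tested genes were called, beside 0.27% of all genes. The lists were chosen with earlier results of these data known, so this count is no independent support. *Sst*, *Iapp* and *Hhex* came from the same few cells, and *Cd74*, *H2-Ab1*, *Reg3g* and *Hsph1* from lists that are not endocrine. The median log2 fold change over all genes tested was 0.0094. Among 11 tested peptide hormones outside the rule 3 were called higher (*Sst*, *Iapp*, *Cartpt*) and 0 lower, with a median of 0.30. *Nts* was at 54.6, 560 and 2093 CPM (log2 fold change -2.81 ± 0.65, edgeR adjusted p = 0.118), seen in 1, 3 and 14 cells. *Nts* passed without the cells of mixed lineage (log2 -5.99, edgeR adjusted p = 3.80e-08), where Arid3a cKO 2 had none and 2326 of the 2869 WT UMIs were in 1 cell. *Tac1* was at 443, 408 and 702 CPM (-0.80 ± 0.26, edgeR adjusted p = 0.743) and *Gcg* at 4872, 2404 and 2467 CPM (0.47 ± 0.35, edgeR adjusted p = 0.999).

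The shared secretory machinery had no called gene. Of 13 tested processing enzymes and granins 0 were called (median log2 fold change 0.05), with *Pcsk1* at 564, 586 and 487 CPM (0.17 ± 0.27) and *Scg3* at 306, 282 and 277 CPM (0.01 ± 0.26). Of 22 exocytosis genes 0 were called (median 0.11), with the SNARE protein gene *Snap25* at 177, 212 and 171 CPM (0.11 ± 0.27). Of 17 ion channel genes 0 were called (median -0.04), with *Cacna1a*, a calcium channel pore subunit, at 340, 298 and 312 CPM (-0.04 ± 0.26). The calcium channel gene *Cacna1d* was at 35.8, 43.3 and 15.7 CPM (1.25 ± 0.36, edgeR adjusted p = 0.425).

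Of the fate and sensing genes 1 was called. Of 26 transcription factors only *Hhex* was called (median 0.22). *Neurod1* was at 585, 903 and 787 CPM (-0.14 ± 0.31), *Insm1* at 276, 217 and 202 CPM (0.21 ± 0.27) and *Neurog3* at 53.6, 18.2 and 18.4 CPM (0.90 ± 0.44, edgeR adjusted p = 0.999). Of 10 serotonin pathway genes outside the rule 0 were called (median 0.16): *Ddc*, the decarboxylase that makes serotonin, was at 505, 489 and 431 CPM (0.13 ± 0.27), and *Maoa*, which degrades it, at 70.6, 100 and 160 CPM (-0.98 ± 0.29, edgeR adjusted p = 0.437). Of 14 sensing receptors 0 were called (median -0.11), with *Ffar1* at 127, 99.2 and 119 CPM and *Trpa1* at 221, 244 and 176 CPM. Of 11 genes of the BMP response and villus zone 0 were called (median -0.13), with *Id1* at 418, 507 and 453 CPM (-0.04 ± 0.28). Of 7 Notch genes 0 were called (median 0.34), with *Hes1*, a Notch target, at 55.5, 39.9 and 80.7 CPM (-0.83 ± 0.30, edgeR adjusted p = 0.954).

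The immune lists had medians below that of all genes. All 4 tested MHC class II genes were lower in both Arid3a cKO libraries, beside 23.2% of all genes tested, and 2 were called (median -2.07). Of 11 MHC class I and interferon genes 9 were lower in both, beside the same 23.2%, and 0 were called (median -0.68), with the immunoproteasome gene *Psmb9* at 41.4, 31.9 and 68.7 CPM (-0.98 ± 0.30, edgeR adjusted p = 0.605). Of 5 Reg lectins *Reg3g* was called lower (median -0.89), and *Reg4*, a product of the *Tph1*-led cells, was at 8179, 11956 and 7131 CPM (0.43 ± 0.33). Of 21 heat shock and dissociation genes only *Hsph1* was called (median -0.14), with *Hspa8* at 783, 717 and 1250 CPM (-0.81 ± 0.27, edgeR adjusted p = 0.743). Of 11 metabolic genes 0 were called (median -0.11). Goblet markers had a median of -1.95 (2 of 7 called), tuft markers -4.48 (0 of 5) and stem markers 0.89 (1 of 6). Paneth markers had 0.81 (0 of 7), proliferation markers 0.33 (0 of 6) and enterocyte markers -0.19 (0 of 8). Only 1 of the 7 Paneth markers was higher in both Arid3a cKO libraries, beside 36.5% of all genes tested. The mixed-lineage cells, which the goblet, tuft and Paneth lists helped to pick, weighed on these medians. Without them the tested Paneth markers lay between -0.55 and 0.14 and goblet markers between -1.29 and -0.01. Tuft markers lay between -7.17 and -2.63, with Arid3a cKO UMIs near the floor.

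Whether a genotype difference in enteroendocrine cells differed from that in the other kept cells was asked with the interaction test, which called 8 of 14982 genes (0.0534%). This count moved with the settings, from 0 at a rule of 0.2%, where *Asic5* was lost too, to 51 without the filter on low counts. *Asic5* (chr3:81982290-82021233, plus strand), a sodium channel of the acid-sensing family, was higher: it was at 210, 377 and 89.9 CPM in enteroendocrine cells and at 0.0286, 0.262 and 0.496 CPM in the others (interaction log2 3.46 ± 0.52, edgeR adjusted p = 0.00757). Of its UMIs 96.9% lay in *Sst*-led cells, and within enteroendocrine cells alone it was not called (log2 1.64 ± 0.35, edgeR adjusted p = 0.0579). Its level in the other cells was near the floor. With the *Sst* cells outside the rule added, the enteroendocrine UMIs of *Asic5* went from 223, 331 and 195 to 223, 342 and 224. Part of the level in the others, and so of the interaction value, thus came from *Sst* cells that the rule left out. *Ada*, *Spink4*, *Guca2a*, *Ccl6*, *Ido1* and *Cybrd1* were lower and were among the genes with most of their WT UMIs in few cells. The interaction values of *Sst* (2.27 ± 0.52, edgeR adjusted p = 0.264) and *Hhex* (1.79 ± 0.81, edgeR adjusted p = 1) did not pass.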

How the data were processed

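The deposited matrices hold UMI counts per gene and barcode, whole numbers that the authors made with Cell Ranger (5.0.0 in the file headers). The mouse build used for counting is not given in the sources used here, and the submitters' processing notes list human builds (GRCh38, hg19); gene IDs matched GENCODE release 21 for mouse (99.5% of 51912 features), which gave the coordinates. The libraries held 105912207, 94614297 and 129243053 UMIs over 6845, 6893 and 11816 barcodes, and raw counts were used throughout. The members and gene lists were chosen with earlier results of these data known.

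UMIs of the enteroendocrine cells, and of the other kept cells, were summed per library. Genotypes were compared with edgeR 4.0.16 (R 4.3.3; quasi-likelihood test, TMM, filterByExpr, Benjamini-Hochberg threshold 0.05); 2 libraries against 1 leave 1 residual degree of freedom. DESeq2 1.42.0 was an alternative. The interaction model held library, compartment and compartment by genotype. Cells were not treated as replicates. Replicate spread came only from the 2 Arid3a cKO libraries, and the p-values rest mostly on a spread pooled over genes (prior degrees of freedom 17.5). They do not measure any spread among WT libraries. A cell led by a hormone gene needed 3 UMIs of it. Doublets were scored with Scrublet in scanpy 1.11.5 and kept, except in an alternative without the 5% highest scores. Named genes were *Arid3a*, the rule genes, the listed genes and up to 10 called genes per direction with a mean of at least 20 CPM; others were added after their values were seen, and some genes are not reported here. The code was tested on simulated counts.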

Additional observations from a re-analysis of the deposited data

Results flagged for a closer look

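Genotype differences of 8 genes differed between enteroendocrine cells and the other kept cells of the same libraries by the interaction test (edgeR, adjusted p at or below 0.05; 8 of 14982 genes). Among them the interaction log2 values were 3.46 for *Asic5*, -5.21 for *Ido1*, -4.79 for *Ada*, -4.16 for *Spink4*, -3.47 for *Guca2a* and -2.83 for *Ccl6*. For *Asic5* the level in the other cells was near the floor, and part of it came from *Sst* cells outside the rule. *Cybrd1* had 0 UMIs in Arid3a cKO and 52 in WT, at least 15.5-fold lower against a floor of 3 counts over the group; its fitted interaction value of -13 depends on the prior count. *Ido1* had 1 against 118 UMIs, a ratio of 106 (95% exact interval 18.6 to 4204). The WT UMIs of *Cybrd1* (98.1%), *Ada* (97.4%), *Ido1* (65.3%), *Ccl6* (58.3%) and *Guca2a* (54.3%) lay mostly in 1 cell each.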

How the results depend on the processing

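No paired analysis was possible because the genotypes share only 1 replicate number. Over the alternatives, 433 values stayed the same and 62 with no test moved beyond their spread. In 111 a gene lost its call with the direction kept, or a count of called genes fell beyond a set ratio. In 9 a count of called genes rose beyond that ratio, and 6 values reversed. The share difference between the Arid3a cKO mean and WT, -2.49 percentage points, was -2.01 with up to 25% mitochondrial UMIs and 500 genes and -1.70 without the mixed-lineage cells (range -2.74 to -2.24 leaving out 1 Arid3a cKO library). The *Sst*-led share difference, 9.59 points, was 7.14 at a 0.2% rule, 5.50 without the 5% highest doublet scores and 11.9 without the mixed-lineage cells (8.27 to 10.9 leaving out 1 library). Leaving out 1 library gave *Arid3a* log2 values of -2.10 to -1.24. It gave no count of called genes, since 1 against 1 leaves no residual degrees of freedom.

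The 27 called genes became 14 at a 0.5% rule, 11 at the wider quality limits, 9 at 10% mitochondrial UMIs, 110 without the highest doublet scores, 9 without mixed-lineage cells (5 shared: *Gm28438*, *Hsph1*, *Iapp*, *Hhex*, *mt-Nd3*), 73 with no count filter and 8 by DESeq2. The 8 interaction calls became, at 0.2%, 0 (399 at an unadjusted p under 0.05), and otherwise 3, 42, 24, 38, 20, 51 and 3 in the same order, and 13 with *Sst* cells added. The 8 listed genes called became 13 at 0.2%, 3 at 0.5%, 2 at the wider limits, 2 at 10%, 4 without mixed-lineage cells, 4 with DESeq2 size factors and 3 by DESeq2. *Sst* was called under 8 of 11 alternatives, *Iapp* 8, *Hhex* 6, *Hsph1* 7 and *Cd74* 7; DESeq2 called *Sst* and *Iapp* but not *Hhex*.

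Reversed values were, without mixed-lineage cells, the *Ghrl*-led share difference (-0.166 points), *AW112010* (0.67), *Gstm1* (0.27) and *Gstm3* (0.12), and, without the highest doublet scores, *AW112010* (0.26) and *Cd74* (0.0088); the cause was not tested. The settings on mixed-lineage and *Sst* cells were chosen after seeing the data. With 44 to 97 enteroendocrine cells per library, a gene held by a few cells moves with single cells.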
